A study of Mus musculus with 9 samples.

Results

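The Hox-cluster microRNAs (miRNAs) of 3 mouse adipose depots are described here: miR-196a-5p, miR-196b-5p, miR-10a-5p, miR-10b-5p, miR-10a-3p, miR-10b-3p and miR-615-3p. They were chosen by name, as mature miRNAs cut from hairpins that lie inside the Hox gene clusters, and are 7 of the 1251 miRNAs in the table. Of these 7, 6 stood above the lowest value of the table in at least 3 of the 9 libraries and were tested, among 343 tested miRNAs in all. The exception, miR-10b-3p, was at the lowest value in every library. Small RNA was sequenced from whole brown (BAT, interscapular), subcutaneous (SAT, inguinal) and visceral (VAT, epididymal) adipose tissue, 3 libraries per depot. All donors were male C57BL/6J mice that entered the study at 5 to 6 weeks of age, ate a high fat diet (HFD; 45% of energy from fat, 20% from protein and 35% from carbohydrate) for 11 weeks and were 16 to 17 weeks old at the end, after a 4 h fast. All 9 libraries thus share the HFD, no low fat group was analysed here, and the comparison is between depots. Libraries carry the numbers of their titles: BAT 12, 15 and 20, SAT 14, 19 and 20, and VAT 14, 17 and 20. Nothing in the labels says whether libraries with the same number share a mouse, so the p-values below measure the spread between these libraries.

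Hox genes are transcription factors, arranged in clusters, that set position along the body axis, and fat depots keep depot-specific Hox expression in the adult. The miR-10 and miR-196 families sit between or within Hox genes, are transcribed along with their neighbours in development, and include Hox mRNAs among their known targets. In white fat progenitors miR-196a is known to lower Hoxc8, a gene of white adipocyte identity, and to favour brown-like adipocytes. A miRNA pairs with its targets mainly through its seed, bases 2 to 8 from the 5′ end, and either arm of the hairpin, 5p or 3p, can become the mature miRNA.

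The mature sequences below, from RefSeq on GRCm38.p6, show which of the 7 members can pair with the same targets and which ones differ by a single base. They are written 5′ to 3′ with the seed in capitals, and all 7 members were found in RefSeq by name.
miR-196a-5p: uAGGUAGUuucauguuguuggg
miR-196b-5p: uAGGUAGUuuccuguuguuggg
miR-10a-5p: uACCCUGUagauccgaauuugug
miR-10b-5p: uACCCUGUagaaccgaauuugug
miR-10a-3p: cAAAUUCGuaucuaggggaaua
miR-10b-3p: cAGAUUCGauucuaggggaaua
miR-615-3p: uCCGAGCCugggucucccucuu

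The members fall into seed groups. miR-196a-5p and miR-196b-5p share the seed AGGUAGU with no other of the 1679 mouse mature miRNAs in the RefSeq table, and differ by A12C, counted from the 5′ end with the miR-196a-5p base first. miR-10a-5p and miR-10b-5p share ACCCUGU with no other miRNA there and differ by U12A, with the miR-10a-5p base first. The 3p arms of miR-10 carry different seeds and differ by A3G, U9A and A10U, miR-10a-3p first. The seed of miR-615-3p, CCGAGCC, was held by no other name in the table. Because each 5p pair differs by 1 of 22 or 23 bases and the authors shared reads that matched several hairpins among them, the split of reads within a pair is uncertain.

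The hairpins lie in all 4 Hox clusters (GRCm38, the same assembly as mm10). In HoxB on chromosome 11, Mir196a-1 (chr11:96265164-96265265, plus strand) lies between genes, 6.29 kb before the start of Hoxb9, and Mir10a (chr11:96317165-96317274, plus strand) lies between genes, 1.10 kb before the start of Hoxb4. In HoxC on chromosome 15, Mir196a-2 (chr15:102973350-102973434, plus strand) lies between Hoxc10 and Hoxc9, in an intron of a long noncoding Hoxc5 transcript, and Mir615 (chr15:103014910-103015001, plus strand) lies in an intron of Hoxc5. In HoxA on chromosome 6, Mir196b (chr6:52230081-52230165, minus strand) falls in exons of noncoding Hoxa9 transcripts. In HoxD on chromosome 2, Mir10b (chr2:74726070-74726137, plus strand) lies in introns of Hoxd4 and Hoxd3 transcripts. Mir196a-1 and Mir196a-2 give the same mature miR-196a-5p, so its level is a sum over HoxB and HoxC that cannot be split.

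**Figure D1:**
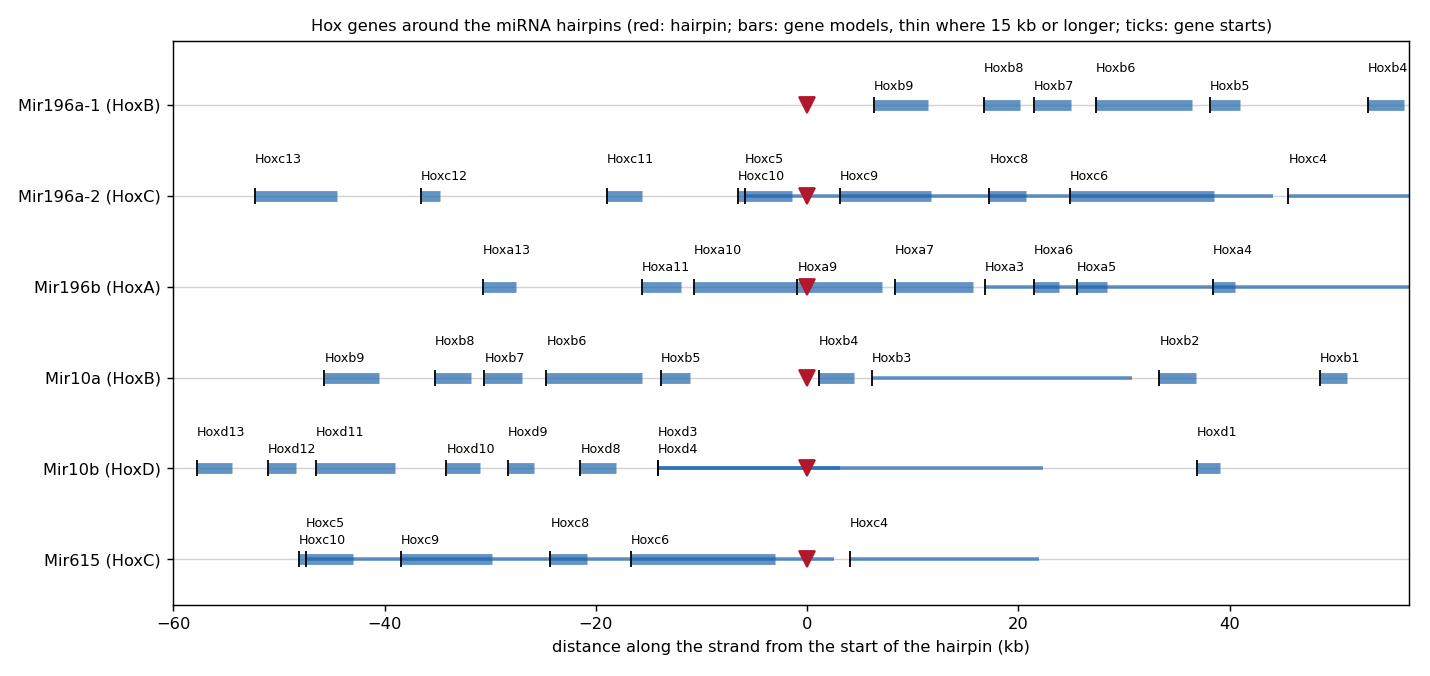
Position of Hox genes around each of the 6 hairpins (rows), as distance in kb along the transcribed strand from the start of the hairpin (x axis); red triangles mark the hairpins, blue bars the gene models and black ticks the gene starts. Mir10a stands just upstream of Hoxb4, and Mir10b and Mir615 stand inside Hoxd4 and Hoxc5.

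The values are log2 levels as deposited, normalized to the usable reads of each library with an offset added, so that the lowest value of the table, 3.32 (10 before the log), marks a miRNA at the offset, and differences of low miRNAs are understated. The paper gives an approximate number of mapped small RNA reads per sample, but read totals per library are not analysed here. The depth of each library is thus unknown, and no counting interval is given. Between 255 and 273 miRNAs were above the lowest value in the BAT libraries, between 240 and 285 in SAT and between 323 and 349 in VAT, and 839 of 1251 were at the lowest value in all 9. Of the brown adipocyte miRNA list (miR-193b, miR-365 and miR-378 arms) 4 of 5 were lower in VAT than in BAT at an adjusted p under 0.05. In SAT 4 of 5 were lower than in BAT. Among all 343 tested miRNAs, 26.8% were lower in VAT/BAT and 18.1% lower in SAT/BAT. The summed unlogged level of the list was 175000 to 480000 in BAT, 37100 to 39200 in SAT and 52600 to 79700 in VAT. The skeletal muscle list differed between libraries of the same depot, and is given beside miR-196 below.

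miR-196a-5p and miR-196b-5p were high in every SAT library, low in BAT and uneven in VAT. miR-196a-5p was at the lowest value, 3.32, in all 3 BAT libraries. In SAT it stood at 10.93 in SAT 14, 10.74 in SAT 19 and 10.53 in SAT 20 (mean 10.73 ± 0.20, SD, n = 3). In VAT it was 9.57 in VAT 17 and 9.16 in VAT 20 but 3.96 in VAT 14 (7.56 ± 3.13, SD, n = 3). No library of one depot overlapped with another depot: each SAT library was above each VAT library, and each VAT library, VAT 14 by a small margin, was above BAT. Among all 1251 miRNAs it ranked 73 to 82 by level in SAT, 100 and 111 in VAT 17 and VAT 20, and 285 in VAT 14.

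SAT/BAT was the comparison in which miR-196a-5p differed most. Its log2 difference, SAT minus BAT, was 7.41 (SE 0.13), with an adjusted p of 6.69e-06 in limma, Benjamini-Hochberg over the 343 tested miRNAs. With all 9 libraries in one limma fit its adjusted p was 0.00147. No linear fold is given, since BAT was at the offset. BAT thus had no spread of its own, and miR-196a-5p met the filter through SAT and VAT only. Its calls against BAT are therefore not independent of the filter. VAT minus BAT was 4.24 (SE 1.46, adjusted p 0.0409), and VAT minus SAT was -3.17 (SE 1.63, adjusted p 0.228), which did not pass the threshold of 0.05. VAT 14 set the error of both VAT comparisons: without it, VAT minus BAT was 6.04 (adjusted p 0.00063) and VAT minus SAT was -1.37 (adjusted p 0.0447). Without any other single library the VAT/BAT call was lost (adjusted p 0.0856 to 0.16), so this call depended on single libraries while the SAT/BAT call did not.

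miR-196b-5p, its paralog from HoxA, was also highest in SAT, at a lower level than miR-196a-5p there. It was at the lowest value in BAT 12 and BAT 15 and at 7.55 in BAT 20 (4.73 ± 2.44, SD, n = 3). The SAT libraries read 9.57, 9.35 and 8.86 for SAT 14, 19 and 20 (9.26 ± 0.36, SD, n = 3). VAT 17 and VAT 20 read 8.16 and 8.21, while VAT 14 was at the lowest value (6.56 ± 2.81, SD, n = 3). SAT stood above every library of both other depots, and BAT and VAT overlapped. SAT minus BAT was 4.52 on the log2 scale (SE 1.31, adjusted p 0.048), a call that held without BAT 20 (5.94, adjusted p 0.000705) and was lost without any other single library of the comparison (adjusted p 0.117 to 0.133). VAT minus BAT was 1.83 (SE 1.74, adjusted p 0.375) and VAT minus SAT was -2.70 (SE 1.47, adjusted p 0.254), neither of which passed.

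**Figure D2:**
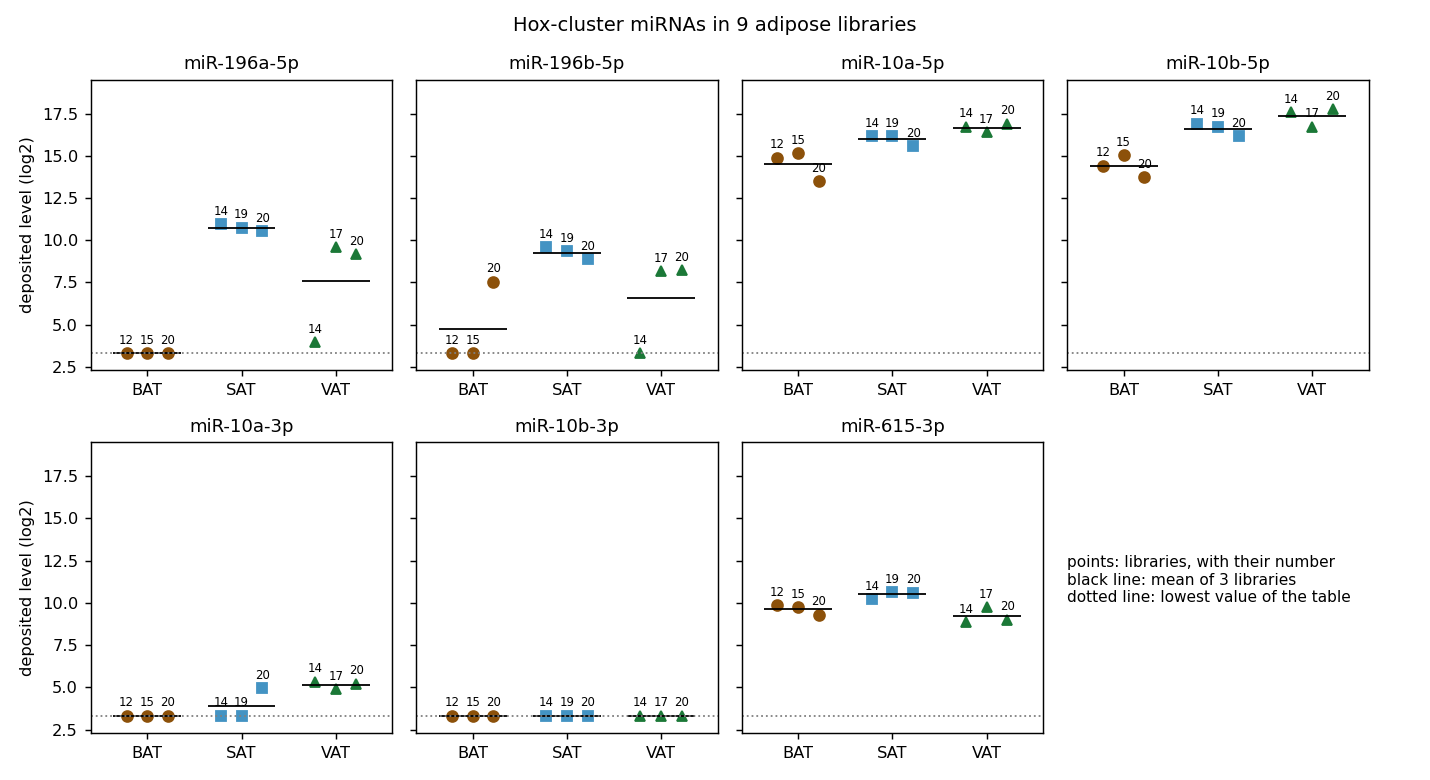
Deposited log2 level (y axis) of the 7 Hox-cluster miRNAs in each library, by depot (x axis); points are libraries with their title number, black lines are means of 3 libraries and the dotted line is the lowest value of the table, 3.32. miR-196a-5p and miR-196b-5p are high in all 3 SAT libraries and low in VAT 14, miR-10a-5p and miR-10b-5p are high everywhere and lowest in BAT, and miR-10b-3p is at the lowest value throughout.

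The libraries VAT 14 and BAT 20 stood apart from their depots for miR-196. The spread of miR-196a-5p over the VAT libraries, 5.61 from lowest to highest, ranked 4 of the 343 tested miRNAs, that of miR-196b-5p, 4.88, ranked 5, and the median miRNA had a spread of 0.52. In VAT 14 the miRNAs farthest below the mean of the other VAT libraries were miR-196a-5p (-5.40), the muscle miRNA miR-133a-3p (-5.04), miR-196b-5p (-4.86), the epithelial miRNA miR-205-5p (-4.00) and miR-133b-3p (-3.98). In BAT 20 the 3 farthest above the other BAT libraries were miR-133a-3p (5.02), miR-133b-3p (4.37) and miR-196b-5p (4.23).

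Skeletal muscle miRNAs thus moved with both miR-196 members in VAT 14 and with miR-196b-5p, but not miR-196a-5p, in BAT 20. The list held 5 miRNAs (miR-1a-3p, miR-133a-3p, miR-133b-3p, miR-206-3p and miR-499-5p), of which 3 were tested, none was called in any comparison and miR-499-5p was at the lowest value everywhere. Its summed unlogged level was 1140, 152000 and 421000 in BAT 12, 15 and 20, then 962, 1800 and 962 in SAT 14, 19 and 20, and 962, 6210 and 151000 in VAT 14, 17 and 20. The match was incomplete: BAT 15, at 152000, had both miR-196 members at the lowest value, and SAT 14 and SAT 20 had the same muscle sum as VAT 14 with miR-196a-5p at 10.93 and 10.53. Within VAT, miR-196a-5p was 9.57 in VAT 17, at a muscle sum of 6210, and 9.16 in VAT 20, at 151000. The epithelial list summed to 60 in each BAT library, where all its miRNAs were at the lowest value, to 20900, 98.4 and 139 in SAT, and to 66.8, 87.9 and 1250 in VAT, and neither of its 2 tested miRNAs was called in any comparison. The part of either cell type in the miR-196 levels was not tested. Without the 3 libraries with the most muscle signal (BAT 15, BAT 20 and VAT 20), which leaves BAT 12 as the only BAT library and assumes that it varies as the other depots do, SAT minus BAT of miR-196a-5p was 7.41 (adjusted p 0.0786) and VAT minus BAT was 3.44 (adjusted p 0.32). In bulk tissue, fewer cells of a type and less of the miRNA per cell cannot be told apart.

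**Figure D3:**
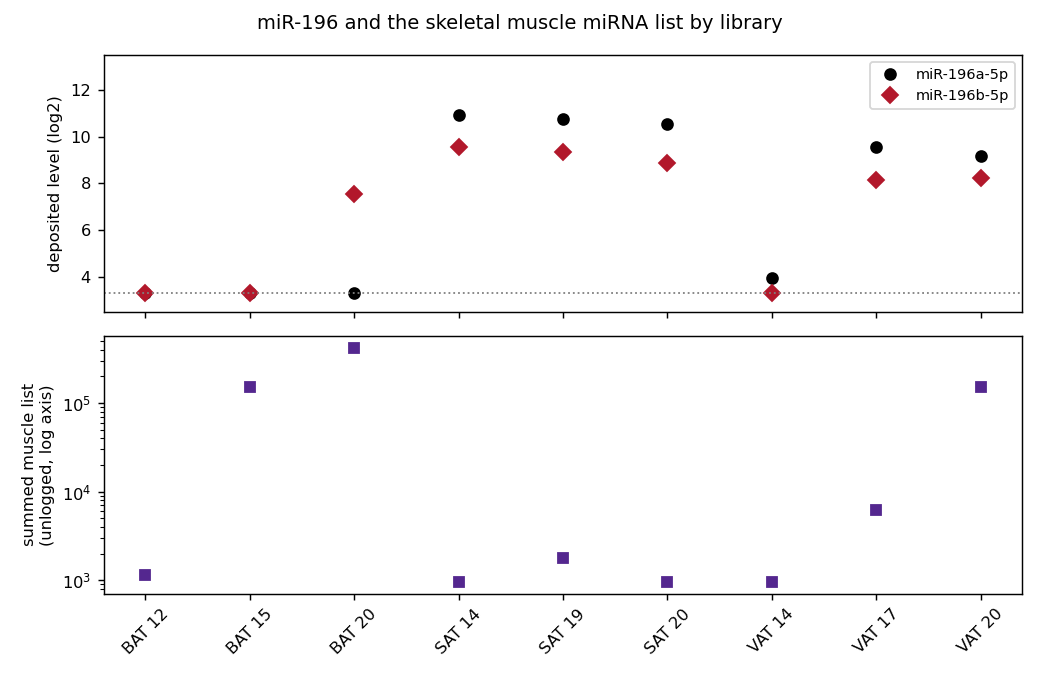
Top, deposited log2 level of miR-196a-5p (black circles) and miR-196b-5p (red diamonds) in the 9 libraries, with the lowest value of the table dotted; bottom, summed unlogged level of the 5 skeletal muscle miRNAs in the same libraries on a log axis. Low miR-196 in VAT 14 falls with a low muscle sum, but SAT 14 and SAT 20 have the same muscle sum of 962 and high miR-196.

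miR-10a-5p and miR-10b-5p were among the most abundant miRNAs of every depot. VAT exceeded BAT for both, and SAT exceeded BAT for miR-10b-5p. miR-10b-5p read 14.41, 15.02 and 13.74 in BAT 12, 15 and 20 (14.39 ± 0.64, SD, n = 3), 16.90, 16.72 and 16.18 in SAT 14, 19 and 20 (16.60 ± 0.38), and 17.58, 16.72 and 17.77 in VAT 14, 17 and 20 (17.36 ± 0.56). Every SAT and VAT library was above every BAT library, and SAT and VAT overlapped at VAT 17. It ranked 2, 3 and 6 of 1251 by level in VAT, 5 to 9 in SAT and 17 to 30 in BAT, and its share of the summed unlogged levels was 4.45 to 9.25% in VAT, 3.06 to 5.07% in SAT and 0.566 to 1.38% in BAT. Equal ranks share values between libraries, and the sums include the offset, so these are not shares of reads.

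miR-10b-5p was higher in VAT than in BAT by 2.97 on the log2 scale (SE 0.44, 7.82-fold, adjusted p 0.00164) and higher in SAT than in BAT by 2.21 (SE 0.40, 4.62-fold, adjusted p 0.0115). VAT and SAT differed by 0.76 (SE 0.36, adjusted p 0.203), which did not pass. The VAT/BAT call was the one among those of the members that held under all 17 alternatives tried (adjusted p 0.000429 to 0.0366). Without BAT 15, BAT 20 and VAT 20, the libraries with the most muscle signal, VAT minus BAT was 2.74 (adjusted p 0.0195) and SAT minus BAT was 2.19 (adjusted p 0.0327).

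miR-10a-5p, from HoxB, had the same order. Its levels were 14.88, 15.16 and 13.51 in BAT 12, 15 and 20 (14.52 ± 0.89, SD, n = 3), 16.18, 16.18 and 15.56 in SAT 14, 19 and 20 (15.97 ± 0.36), and 16.72, 16.38 and 16.90 in VAT 14, 17 and 20 (16.67 ± 0.27). The 3 depots did not overlap, with VAT highest and BAT lowest. VAT exceeded BAT by 2.15 (SE 0.47, 4.43-fold, adjusted p 0.00797). SAT minus BAT was 1.45 (SE 0.51, adjusted p 0.0809) and VAT minus SAT was 0.70 (SE 0.24, adjusted p 0.114), and neither passed, although the libraries did not overlap. The SAT/BAT difference passed in 3 of 17 alternatives: with all 9 libraries in one fit (adjusted p 0.0236), among the tested miRNAs above the median mean level (0.0349) and with a replicate block by order in the source names (0.0468). BAT 20, in which miR-10a-5p was lowest, widened the BAT spread, and without it SAT minus BAT was 0.95 (adjusted p 0.0589).

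The 3p arms of miR-10 were scarce beside the 5p arms. miR-10a-3p was at the lowest value in all 3 BAT libraries and in SAT 14 and SAT 19, stood at 4.96 in SAT 20, and was 5.33, 4.91 and 5.22 in VAT 14, 17 and 20 (5.15 ± 0.22, SD, n = 3). VAT was above BAT in every library, whereas SAT 20 overlapped with VAT. VAT minus BAT was 1.83 (SE 0.22, adjusted p 0.000698), SAT minus BAT 0.55 (SE 0.50, adjusted p 0.42) and VAT minus SAT 1.28 (SE 0.51, adjusted p 0.145). The first passed and the others did not, and without SAT 20 the VAT/SAT difference passed too (1.83, adjusted p 0.0271). miR-10a-3p met the filter through its 3 VAT libraries and SAT 20, and BAT was at the offset with no spread of its own, so its VAT/BAT call is not independent of the filter. The size of that difference followed the offset, from 0.60 with 40 more added to 4.73 with the lowest value subtracted. Without the 3 libraries with the most muscle signal, which leaves BAT 12 as the only BAT library, the call was lost (log2 difference 1.79). Within a library both arms of miR-10a were above the lowest value in 4 libraries, where miR-10a-5p exceeded miR-10a-3p on the log2 scale by 10.60 in SAT 20 and by 11.39, 11.47 and 11.68 in VAT 14, 17 and 20. In the BAT libraries, SAT 14 and SAT 19 the 3p arm was at the lowest value, as miR-10b-3p was in all 9. The difference between arms there only restates the 5p arm. Depot comparisons of the arms were run among the 12 differences within a library and are not read as a balance of arms.

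miR-615-3p, from an intron of Hoxc5, was present in all 9 libraries and highest in SAT. Its levels were 9.85, 9.76 and 9.31 in BAT 12, 15 and 20 (9.64 ± 0.29, SD, n = 3), 10.23, 10.65 and 10.61 in SAT 14, 19 and 20 (10.50 ± 0.23), and 8.84, 9.74 and 9.01 in VAT 14, 17 and 20 (9.20 ± 0.48). All SAT libraries stood above all others, and BAT and VAT overlapped. SAT exceeded BAT by 0.86 (SE 0.21, 1.81-fold, adjusted p 0.0277), and VAT was lower than SAT by 2.46-fold (log2 difference -1.30, SE 0.28, adjusted p 0.0414). VAT minus BAT was -0.44 (SE 0.32, adjusted p 0.255). Both calls were near the threshold: the SAT/BAT call was lost without BAT 15, SAT 19 or SAT 20 (adjusted p 0.0588 to 0.0952), and the VAT/SAT call was lost without any single library but VAT 17 (adjusted p 0.0683 to 0.127). VAT 14, low in miR-196, was also the lowest VAT library for miR-615-3p, at 8.84 against 9.01 in VAT 20. Without the 3 libraries with the most muscle signal, which leaves BAT 12 as the only BAT library, both calls were lost. SAT minus BAT was then 0.65 and VAT minus SAT was -1.21.

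Counted over the 6 tested members, 4 were higher in VAT than in BAT (miR-196a-5p, miR-10a-5p, miR-10b-5p and miR-10a-3p, or 3 of 5 without miR-10a-3p, which met the filter mainly through VAT) and none was lower, where 39.4% of all 343 tested miRNAs were called higher and 26.8% lower. In SAT/BAT 4 were higher in SAT (miR-196a-5p, miR-196b-5p, miR-10b-5p and miR-615-3p) and none was lower, against 22.4% higher and 18.1% lower of all tested. In VAT/SAT none was higher and 1, miR-615-3p, was lower, against 8.45% higher and 7.58% lower of all tested. The median log2 difference of the members was 1.99 in VAT/BAT, 1.83 in SAT/BAT and -0.30 in VAT/SAT, with medians over all tested miRNAs of 0.40, 0.26 and 0.10. The comparisons share libraries, so the VAT/BAT and SAT/BAT counts are not independent. Both also include miR-196a-5p, which was at the lowest value in all 3 BAT libraries and met the filter through SAT and VAT only. Neither count is thus independent of the filter. When each library's miR-191-5p level was subtracted, the calls over all miRNAs in VAT/SAT went from 29 higher and 26 lower to 2 higher and 0 lower, and the median over all miRNAs moved from 0.26 to 0.09 in SAT/BAT and from 0.10 to 0.27 in VAT/SAT. Normalizing the quantiles again moved the VAT/BAT median to 0.13. No member changed direction under either scaling.

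**Figure D4:**
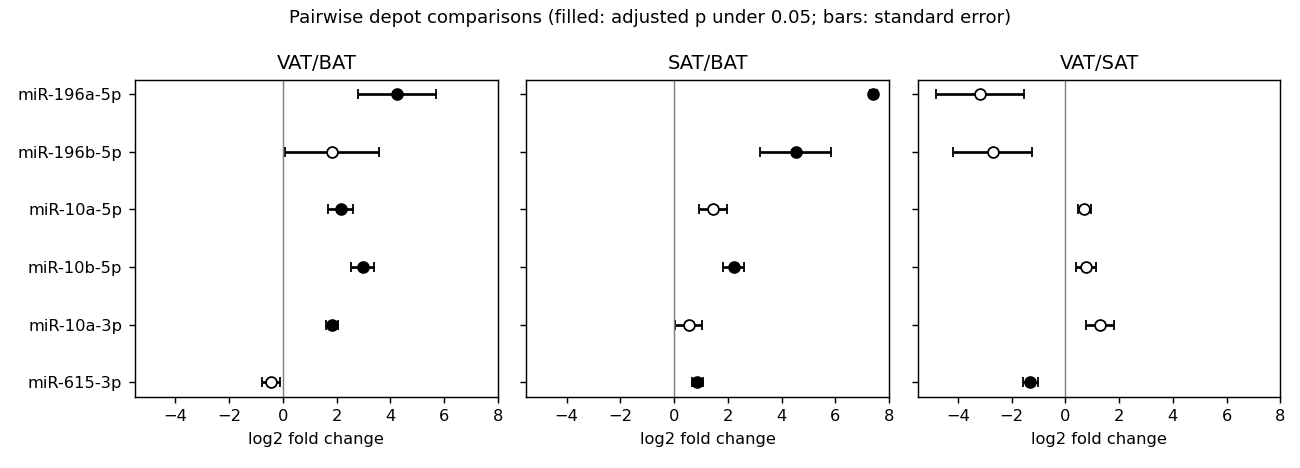
Log2 difference (x axis) of the 6 tested members in each depot comparison, with bars of 1 standard error from limma on 6 libraries; filled points have an adjusted p under 0.05. miR-10a-5p and miR-10b-5p lie to the right of 0 in all 3 panels, while miR-196a-5p and miR-615-3p lie to the right in SAT/BAT and to the left in VAT/SAT.

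Between the paralogs, the deposited levels of miR-10a-5p and miR-10b-5p were near even in BAT and leaned to miR-10b-5p in white fat. Equal ranks share values between libraries, and the split of reads within the pair is uncertain. The differences below are thus gaps between deposited levels and not ratios of reads. Within a library the log2 difference, miR-10a-5p minus miR-10b-5p, was 0.48, 0.14 and -0.23 in BAT 12, 15 and 20, then -0.73, -0.54 and -0.62 in SAT 14, 19 and 20, and -0.87, -0.34 and -0.87 in VAT 14, 17 and 20. No BAT library overlapped with SAT or VAT, and SAT and VAT overlapped each other. VAT and BAT differed by -0.82 and SAT and BAT by -0.76, each at an exact permutation p of 0.1, the smallest that 3 libraries against 3 allow (two-sided, adjusted 0.2 over 12 differences). VAT and SAT differed by -0.06 (exact permutation p 0.8).

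miR-196a-5p exceeded miR-196b-5p by 1.36, 1.39 and 1.67 in SAT 14, 19 and 20 and by 0.64, 1.41 and 0.96 in VAT 14, 17 and 20, with miR-196b-5p at the lowest value in VAT 14. In BAT 20 alone miR-196b-5p stood above miR-196a-5p, by 4.23, the latter being at the lowest value, and in BAT 12 and BAT 15 both were at the lowest value. SAT and VAT overlapped and differed by -0.47 (VAT minus SAT, exact permutation p 0.3, two-sided). Against BAT the difference was 2.41 for VAT and 2.88 for SAT (exact permutation p 0.1 each, two-sided, adjusted 0.2). No BAT library had both members above the lowest value, so these values do not measure the balance of the pair.

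**Figure D5:**
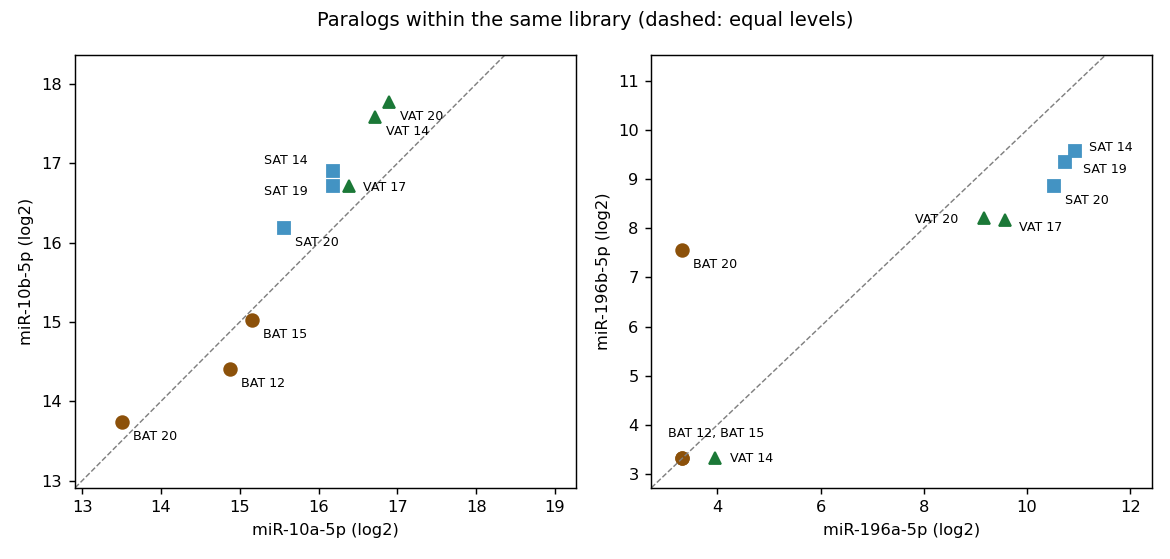
Deposited log2 levels of each paralog pair in the same library, miR-10a-5p against miR-10b-5p (left) and miR-196a-5p against miR-196b-5p (right); brown circles are BAT, blue squares SAT and green triangles VAT, and the dashed line marks equal levels. All SAT and VAT libraries lie above the line on the left and below it on the right, and BAT 20 stands alone at the upper left of the right panel.

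Other arms of the same hairpins were scarce. miR-196a-1-3p, miR-196a-2-3p and miR-196b-3p were at the lowest value in all 9 libraries. miR-615-5p was 5.53, 3.32 and 5.76 in BAT 12, 15 and 20, 3.32, 3.32 and 4.64 in SAT 14, 19 and 20, and 3.38, 3.80 and 3.32 in VAT 14, 17 and 20. It overlapped between all depots and was called in none of the comparisons (adjusted p 0.113 to 0.712 in limma), and unlike miR-615-3p its SAT mean was not above BAT (SAT minus BAT -1.11, SE 0.82).

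The miR-99/100 family, whose mature sequences are close to miR-10 but whose genes lie outside the Hox clusters, has the seed ACCCGUA in place of ACCCUGU.
miR-99a-5p: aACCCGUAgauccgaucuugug
miR-99b-5p: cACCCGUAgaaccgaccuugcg
miR-100-5p: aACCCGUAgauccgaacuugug
Its members did not all move as miR-10 did. miR-99a-5p was higher in VAT than in BAT by 1.93 (SE 0.31, adjusted p 0.00221) and in SAT than in BAT by 1.10 (SE 0.32, adjusted p 0.0477). miR-100-5p was higher in VAT than in BAT by 1.39 (SE 0.45, adjusted p 0.0344), and its SAT minus BAT difference was 1.16 (adjusted p 0.142). miR-99b-5p was lower in VAT than in BAT, by a log2 difference of -1.20 (SE 0.31, adjusted p 0.0161), with SAT minus BAT at -0.88 (adjusted p 0.0904). None of the 3 passed in VAT/SAT (0.83, -0.33 and 0.23 for miR-99a-5p, miR-99b-5p and miR-100-5p, adjusted p 0.0676 to 0.579).

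The tested miRNAs outside the members with the levels most like each 5p member over the 9 libraries are given as a description, since the points share 3 depots. Nearest to miR-196a-5p by Pearson correlation were miR-301a-3p (r = 0.952), miR-335-5p (0.892) and miR-181c-3p (0.888). miR-301a-3p was at the lowest value in all 3 BAT libraries, 5.60 to 5.94 in SAT, 4.64 and 4.51 in VAT 17 and VAT 20, and 3.63 in VAT 14, so it too was low in VAT 14. miR-335-5p was at the lowest value in BAT, 8.18 to 8.68 in SAT and 5.67 to 6.34 in VAT, with VAT 14 at 5.96 not apart from the others. Nearest to miR-196b-5p were miR-301a-3p (0.823), miR-504-5p (0.746) and let-7d-5p (0.734). miR-504-5p, at 5.72 and 6.04 in BAT 12 and BAT 15 and 9.35 in BAT 20, shared the high BAT 20 value of miR-196b-5p.

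Nearest to miR-10a-5p were miR-146b-5p (0.970), miR-411-5p (0.963) and miR-24-3p (0.958), and nearest to miR-10b-5p were miR-146b-5p (0.985), miR-24-3p (0.971) and miR-26a-5p (0.960). miR-146b-5p was 6.04 to 7.84 in BAT, 9.59 to 10.08 in SAT and 11.10 to 11.70 in VAT, so that the depots followed the miR-10 order without overlap. Between the members themselves r was 0.969 for miR-10a-5p with miR-10b-5p and 0.867 for miR-196a-5p with miR-196b-5p.

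Other cell types were measured in the same libraries by lists of marker miRNAs, whose part in the miR-10 difference was not tested. Among all 343 tested miRNAs, 39.4% were called higher and 26.8% lower in VAT/BAT. These shares were 22.4% and 18.1% in SAT/BAT, and 8.45% and 7.58% in VAT/SAT. Each list is short, so its counts beside these shares do not establish a difference in cell type. Endothelial miR-126 arms (2 of 2 higher in VAT/BAT and in SAT/BAT) summed to 2970 to 4810 in BAT, 9920 to 12500 in SAT and 11900 to 12800 in VAT, in the depot order of miR-10b-5p with SAT and VAT overlapping. The fibroblast list (3 of 5 higher in both) summed to 11700 to 16500, 23600 to 35700 and 21700 to 26600. The myeloid and lymphoid list had 4 of 5 higher and 1 of 5 lower in VAT/BAT and 1 of 5 higher in SAT/BAT, and SAT 20 alone reached 113000, against 8430 to 27700 in the other libraries. In VAT/SAT each of the brown adipocyte, myeloid and lymphoid, red cell and fibroblast lists had 1 miRNA higher and the endothelial list none. The red cell list (1 tested, higher in VAT/BAT) summed to 461 to 850, 985 to 1350 and 2320 to 3590 in BAT, SAT and VAT. Of the epididymis and testis list, 4 of 5 miRNAs were at the lowest value everywhere, and the remaining one was higher in VAT and in SAT than in BAT, with sums of 50 to 63.8, 172 to 226 and 258 to 271.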

How the data were processed

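The data are small RNA libraries, 3 each, of the brown, subcutaneous and visceral fat of HFD fed mice. Per the labels and the study's methods, the authors mapped reads to miRNA hairpins (build mm10), shared reads that matched several hairpins among them in proportion, normalized to usable reads, added a constant and deposited log2 values. The methods state a constant of 40, but the lowest deposited log2 value corresponds to 10, and equal ranks share values between libraries, as quantile normalization leaves them. The aligner is not given in the sources used here. The labels and the methods name different sequencers. Depth per library is unknown, so precision rests on the spread of 3 libraries.

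A miRNA was kept if 3 or more of the 9 libraries exceeded the lowest value (343 of 1251). Each pair of depots was fitted with limma 3.58.1 (R 4.3.3; lmFit and eBayes, 6 libraries, two-sided, Benjamini-Hochberg over 343, called at an adjusted p under 0.05) and tested on simulated data. Differences within a library were tested by exact permutation, adjusted over 12. The named miRNAs were all 7 members, other arms of their hairpins, the miR-99/100 family and, for each of 4 members, the 3 other miRNAs with the highest Pearson correlation. Sequences were RefSeq GRCm38.p6 and gene models GENCODE on GRCm38. Members, lists and tests were chosen with earlier results of these data known. Alternatives covered the offset, the filter, normalization, all 9 libraries in one fit, the replicate block, moderation and each library left out. Leaving out the 3 libraries with the most muscle signal was chosen after seeing the data. The r of deviations from depot means was -0.139 to 0.27 over 4 same-numbered pairs, highest for BAT 20 with VAT 20. It was -0.173 to 0.358 over 9 pairs by order in the source names. With 3 libraries per depot these values cannot settle whether libraries share a mouse. No pairing was used, since the labels give none.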

Additional observations from a re-analysis of the deposited data

How the results depend on the processing

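No member changed the direction of a log2 difference under any alternative, and 1, that of miR-10a-3p in SAT/BAT, fell to 0.00 without SAT 20. Over all tested miRNAs, 227 were called in VAT/BAT, 139 in SAT/BAT and 55 in VAT/SAT. Without a filter these became 128, 74 and 4, with 1251 miRNAs in the fit and the adjustment, and the members called went from 4, 4 and 1 to 2, 1 and 0. With only the tested miRNAs above the median mean level, 119 were called in VAT/BAT, and miR-196b-5p and miR-10a-3p had no value. The VAT/SAT comparison was the least stable. It called 2 miRNAs relative to miR-191-5p, 30 with all 9 libraries in one fit and 13 without moderation, with 0, 1 and 0 members. Without the 3 libraries with the most muscle signal, members called were 2 in VAT/BAT, 1 in SAT/BAT and 0 in VAT/SAT, and 5 miRNAs were called in VAT/SAT. The causes were not tested.

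With a replicate block by title number, possible only in VAT/SAT since the other comparisons share a single number, 55 miRNAs and 1 member were called. With a replicate block by order in the source names, 0 were called in VAT/SAT (limma, 105 at an unadjusted p under 0.05) with 0 members, and in SAT/BAT miR-196b-5p (adjusted p 0.102) and miR-615-3p (0.0939) were lost while miR-10a-5p passed (0.0468). Libraries in the first kind of block share a title number. Those in the second share a place in the source names and often differ in title number. For neither kind do the labels say whether the libraries share a mouse.

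With 1 library left out, the miRNAs called ranged from 187 to 236 in VAT/BAT, 112 to 142 in SAT/BAT and 0 to 49 in VAT/SAT (0 without SAT 19, with 104 at an unadjusted p under 0.05 in limma, 5 without VAT 20, 12 without SAT 20 and 23 without VAT 14), and the members called from 3 to 4, 2 to 4 and 0 to 1 (2 in SAT/BAT without BAT 15, SAT 19 or SAT 20). miR-196a-5p lost its VAT/BAT call in 11 of 17 alternatives (adjusted p 0.00063 to 0.398) and miR-196b-5p its SAT/BAT call in 10 of 16 (0.000705 to 0.289). miR-615-3p lost its SAT/BAT call in 7 of 17 (0.0253 to 0.316) and its VAT/SAT call in 10 of 18 (0.0182 to 0.27).

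Some differences within a library reversed. That of miR-10a-5p and miR-10b-5p in VAT/SAT was 0.03 without VAT 14 or without VAT 20 (-0.24 to 0.03 with 1 library left out). That of miR-196a-5p and miR-196b-5p in VAT/SAT was 0.22 with the lowest value subtracted. Against BAT, where at least 1 of the pair was at the lowest value in each library, it was 2.88 for SAT, 1.47 to 3.59 with 1 library left out, and 2.41 for VAT, at most 3.12 with 1 library left out, with the lowest of each without BAT 20. That of the miR-10a arms came to -2.58 (VAT/BAT) and -0.04 (SAT/BAT) with the lowest value subtracted, 0.27 in VAT/SAT with 40 more added, and -0.19 to 0.64 in VAT/BAT with 1 library left out, and in BAT it rests on a 3p arm at the lowest value.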
